A study of Mus musculus with 6 samples.

Results

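The genes described here are the AP-1 genes *Jun*, *Junb*, *Jund*, *Fos*, *Fosb*, *Fosl1* and *Fosl2* and the immediate early genes *Atf3*, *Egr1* and *Ier2*. They were taken by name from the deposited RNA-seq table, in which each of these 10 genes has 1 row among 23235 in all. The cells were those of the mouse embryonic stem cell (ESC) line E14Tg2a, used between passages 37 and 40. Cultures held pluripotent by Leukemia Inhibitory Factor (LIF), called ESCs below, gave 3 samples, and LIF-free monolayers treated with 1 μM Retinoic Acid (RA) for 2 days (48 h), which the study names Neuronal Cells (NCs), gave the other 3. RNA of each sample came from 2 plates of 60 mm. Both conditions come from 1 cell line, and NCs differ from ESCs in LIF as well as in RA, so the removal of LIF and the addition of RA cannot be told apart. The labels describe a growth medium with serum, and the time between the last change of medium and the harvest is not given in the sources used here. Expression is given as FPKM, the fragment number scaled to transcript length and to all mapped fragments, for which the authors deposited 1 value per gene and condition, made from the 3 replicates. No replicate values were used here, so no SD and no test stand beside any value, and no difference below has a replicate check.

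Immediate early genes are transcribed within minutes of a signal such as serum or a growth factor, without the need for new protein synthesis, and their mRNAs are short-lived. Proteins of the Jun and Fos families and Atf3 carry a basic region and a leucine zipper and bind DNA as dimers called AP-1. Jun proteins can pair with each other, whereas Fos proteins need a Jun or another partner. Egr1 is a zinc finger factor of the same response, and Ier2 is a short nuclear protein. A steady-state RNA level in a growing culture therefore reads a balance of ongoing transcription and decay, not a single wave of induction.

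The promoter sequences are shown for the 3 genes that passed the 2-fold limit, *Jun*, *Atf3* and *Junb*, and for *Fos*, the founding gene of the class, which did not. Each stretch is the 200 bases before the start site that RefSeq gives on GRCm38.p6, read 5′ to 3′ on the strand of the gene. *Jun* is at chr4:95052223-95052422 (minus strand), *Atf3* at chr1:191183334-191183533 (minus strand), *Junb* at chr8:84978749-84978948 (minus strand) and *Fos* at chr12:85473690-85473889 (plus strand). Capitals mark, on either strand, TGACATCA, the variant TTACGTCA, the shorter TGACG, the TATA box TATAAA and the CCAAT box.
Jun: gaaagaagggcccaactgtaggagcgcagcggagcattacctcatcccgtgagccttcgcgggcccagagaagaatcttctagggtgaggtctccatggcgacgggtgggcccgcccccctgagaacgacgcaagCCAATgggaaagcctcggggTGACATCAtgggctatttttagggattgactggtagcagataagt
Atf3: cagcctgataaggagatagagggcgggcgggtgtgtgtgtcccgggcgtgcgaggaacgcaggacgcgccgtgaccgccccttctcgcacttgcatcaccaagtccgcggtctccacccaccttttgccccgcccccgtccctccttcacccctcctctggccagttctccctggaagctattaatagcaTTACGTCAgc
Junb: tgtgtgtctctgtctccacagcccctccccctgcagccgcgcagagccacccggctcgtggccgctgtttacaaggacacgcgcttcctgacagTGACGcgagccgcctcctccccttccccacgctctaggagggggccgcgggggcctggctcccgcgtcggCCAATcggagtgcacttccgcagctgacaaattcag
Fos: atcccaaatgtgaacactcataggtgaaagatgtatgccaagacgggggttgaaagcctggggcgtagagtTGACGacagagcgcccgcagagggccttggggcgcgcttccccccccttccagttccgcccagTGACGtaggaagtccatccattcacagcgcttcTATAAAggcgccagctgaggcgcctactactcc

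*Jun* carries TGACATCA, a variant of the AP-1 and CRE motifs, 45 bases before its start, and CCAAT 65 bases before it. *Atf3* carries TTACGTCA, a variant of the cyclic AMP response element (CRE), 10 bases before its start, and this match holds a TGACG on the opposite strand. *Fos* has TGACG at 129 and at 66 bases and TATAAA at 33 bases before its start. *Junb* has TGACG at 106 bases and CCAAT at 36 bases, and a TATAAA that begins at its RefSeq start site and so lies outside the stretch shown. TGACATCA occurred in 3.62% of the 32851 promoter windows in the RefSeq table, TTACGTCA in 0.499%, TGACG in 20.8%, TATAAA in 13.6% and CCAAT in 37.4%. These windows run from 250 bases before to 50 bases after the start, and both strands were searched. Sites outside the windows were not searched, so a motif absent from a window may still lie elsewhere at the gene. Of the 10 genes, 7 have a window, and *Fosl1*, *Egr1* and *Ier2* do not. No window of the 7 holds the consensus CRE TGACGTCA (1.79% of all windows), TGANTCA for AP-1 (7.81%), TTCNNNGAA for STAT factors (8.30%), the nuclear receptor motif AGGTCA (16.3%) or a CArG box, the site of serum response factor (1.63%). GCGNGGGCG, the letters bound by Egr1, occurs in the windows of *Fosb* and *Fosl2*, against 5.55% of all windows, and the GC box GGGCGG in 5 of the 7, against 35.7%. The *Jund* window begins from a RefSeq start 1210 bases away from the gene start in GENCODE, that of *Fosl2* 671 bases and that of *Atf3* 34706 bases away. The RefSeq start of *Junb* lies 30 bases before its GENCODE gene start, so the distances given for its motifs depend on the start used. The motifs were chosen after the sequences had been read, and a match is a description of letters only.

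The FPKM values of the whole table summed to 770592 in ESCs and 628679 in NCs, although the median log2 ratio (NC over ESC) of the 11717 genes with at least 1 FPKM in both was -0.05. Scaling both conditions to the same sum added 0.29 to every log2 ratio and raised that median to 0.25, so ratios are given as deposited. For the 10 genes a scaled value is named where it changes a call or a direction. For the other lists the scaled counts are given where they change, and not each gene whose call changes is named. Of all genes with at least 1 FPKM in either condition, 12.5% were at least 2-fold higher in NCs and 10.6% lower. All 8 ESC markers, among them *Pou5f1* and *Nanog*, were at least 2-fold lower in NCs, and 7 of 9 RA response and neural markers were higher, with *Pax6* at 3.64 FPKM in ESCs and 65.2 in NCs. The neuronal tubulin gene *Tubb3*, with 33.4 FPKM in ESCs and 7.54 in NCs, ran against the name of the NCs. Markers of other cell types differed as well. Of 7 fibroblast markers past the filter, 6 were at least 2-fold higher in NCs and *Thy1* was lower, and the summed level of the list was 22.5 FPKM in ESCs and 61.3 in NCs. *Postn*, the remaining fibroblast marker, was under 1 FPKM in both. Endoderm markers summed to 7.16 FPKM in ESCs and 18.5 in NCs, with 3 of 4 higher, mesoderm markers to 3.06 and 2.07, and trophoblast markers to 40.0 and 12.3. *Tfap2c* alone, with 34.0 FPKM in ESCs and 4.59 in NCs, carried the trophoblast difference, while *Krt7* had 4.47 and 6.59 and *Cdx2* and *Elf5* were near 0. The part of these cells in the levels below was not tested, and in bulk RNA fewer cells of a type and less RNA per cell cannot be told apart.

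Of the 10 genes, 8 passed the filter of at least 1 FPKM in either condition. *Atf3* and *Jun* were at least 2-fold higher in NCs, *Junb* was at least 2-fold lower, and *Jund*, *Fosl2*, *Egr1*, *Ier2* and *Fos* were within 2-fold. *Fosb* and *Fosl1* were under 1 FPKM in both conditions. Among all 13293 genes past the same filter, 12.5% were at least 2-fold higher in NCs and 10.6% at least 2-fold lower, so 2 of 8 higher and 1 of 8 lower is not a result about the group. The median log2 ratio of the 8 genes was 0.59, and that of all genes past the filter was -0.03. With both conditions scaled to the same sum, *Jund* also passed the limit (log2 ratio 1.21), and of all calls 70.6% in place of 54.0% were higher in NCs.

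**Figure D1:**
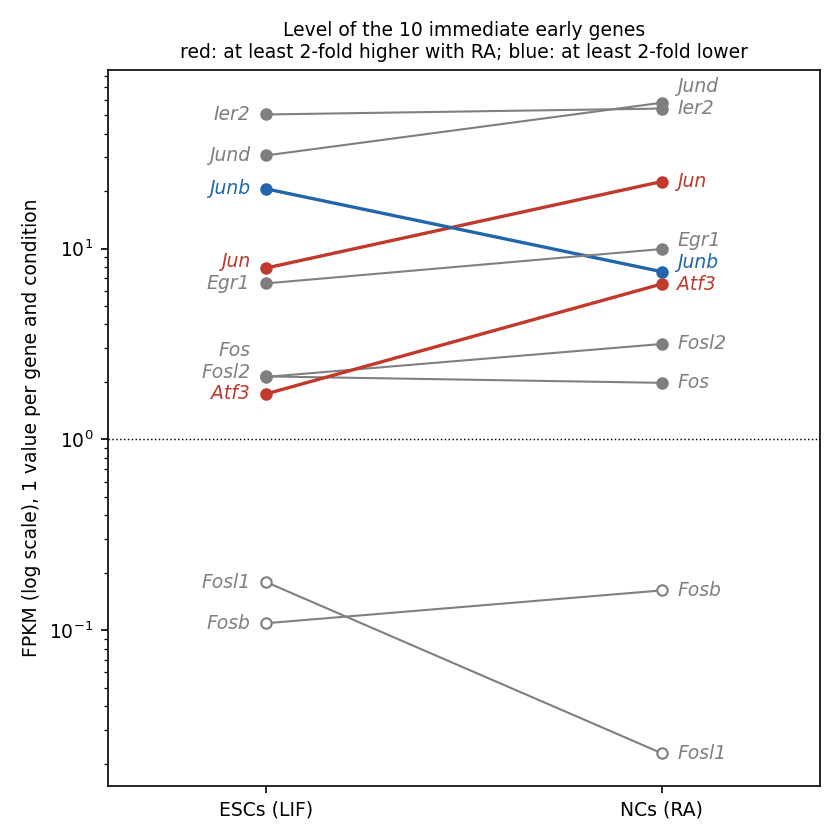
FPKM of each of the 10 genes on a log scale in ESCs (LIF) and NCs (RA), with 1 point per gene and condition and no error bar, since the table holds 1 value. Red lines rise by at least 2-fold (*Atf3*, *Jun*), the blue line falls by at least 2-fold (*Junb*), open points lie under 1 FPKM in both conditions (dotted line), and the lines of *Jun* and *Junb* cross between 7.90 and 22.4 FPKM.

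Of the 3 Jun genes, *Jun* and *Jund* had higher values in NCs, *Jund* within 2-fold, and *Junb* had a lower one. *Jun* (chromosome 4, 95049034 to 95052222, minus strand), whose product c-Jun is the main partner of Fos proteins, is a gene of a single exon with 1 annotated transcript of 3189 bases. It had 7.90 FPKM in ESCs and 22.4 in NCs, which is 2.84-fold higher in NCs. Its ratio was above that of 92.7% of the genes past the filter. On the log2 scale it ranged from 1.40 with a pseudocount of 1 to 1.80 with both conditions scaled to the same sum, so the call did not depend on either.

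*Junb* (chromosome 8, 84974484 to 84978718, minus strand) encodes a Jun protein that activates transcription more weakly than c-Jun and can oppose it. Its level was 20.5 FPKM in ESCs and 7.57 in NCs, 2.72-fold lower in NCs. The log2 ratio of -1.44 was above that of 6.09% of the genes past the filter, and it stayed past the 2-fold limit when both conditions were scaled to the same sum (-1.15). The windows of *Jun*, *Junb* and *Atf3* hold CCAAT, as do 37.4% of all windows, and its part in the levels was not tested. *Prdx2*, an abundant gene with 307 FPKM in ESCs and 386 in NCs, overlaps the annotated span of *Junb* by 351 bases on the opposite strand, but 0 bases of the longest coding transcript of *Junb* lie in its exons.

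*Jund* (chromosome 8, 70698949 to 70700616, plus strand) is the Jun gene that most cells express without a stimulus, and it had the highest level of the 3 in both conditions. It had 30.7 FPKM in ESCs and 58.1 in NCs, a 1.89-fold higher value and just inside the 2-fold limit. An antisense gene, Gm11175, covers 877 of the 1668 bases of the *Jund* transcript. Whether counting used the strand is not given in the sources used here, and without strand the reads of the pair cannot be told apart. For *Jun*, 232 bases are shared with exons of the antisense gene Junos.

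Set side by side per length, *Junb* was 2.60 times the level of *Jun* in ESCs and 0.337 times its level in NCs. The sum of the 3 genes was 59.2 FPKM in ESCs and 88.0 in NCs, 1.49-fold higher. *Jund* made up 51.9% of this sum in ESCs and 65.9% in NCs, *Jun* 13.3% and 25.5%, and *Junb* 34.7% and 8.59%. The shares do not depend on the scaling of the conditions. *Jun* and *Junb* thus took each other's place as the second Jun mRNA, and whether that order holds between replicates cannot be read from 1 value per condition.

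**Figure D2:**
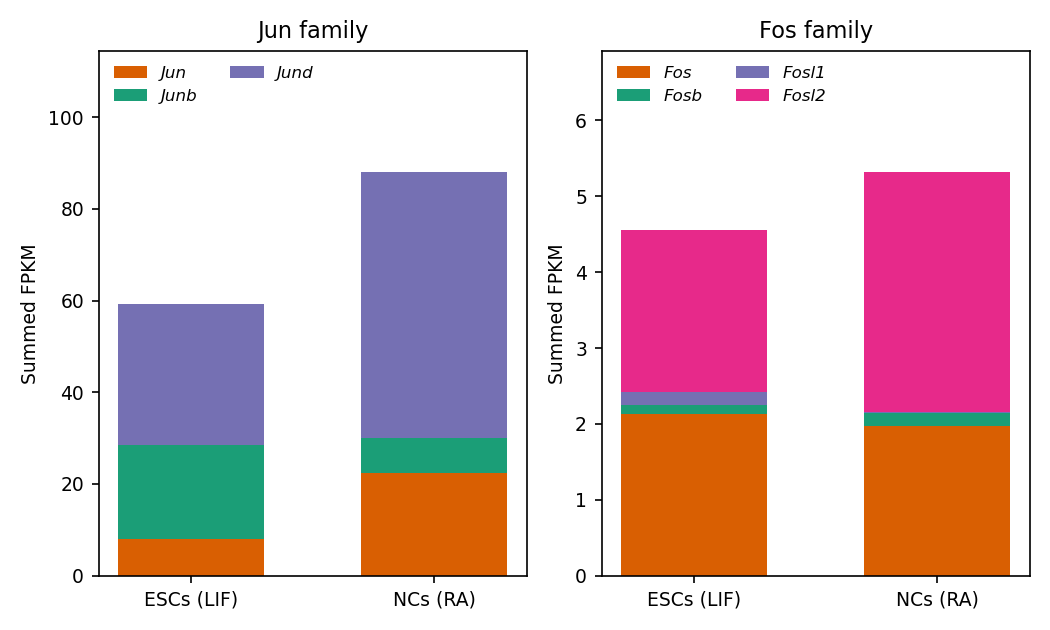
Summed FPKM of the Jun genes (left) and the Fos genes (right) in ESCs (LIF) and NCs (RA), with each bar divided by gene and each axis starting at 0. The Jun sum goes from 59.2 to 88.0 FPKM while the part of *Junb* shrinks and that of *Jun* grows, and the Fos sum stays near 5 FPKM (4.55 and 5.32).

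The Fos genes were low in both conditions. *Fos* (chromosome 12, 85473890 to 85477273, plus strand), the classic marker of recent stimulation, had 2.14 FPKM in ESCs and 1.98 in NCs. Its log2 ratio was -0.11, and it turned to 0.18 when both conditions were scaled to the same sum, so no direction is given. *Fosl2* (chromosome 5, 32135801 to 32157842, plus strand), which encodes the Fos-related antigen Fra-2, had 2.12 FPKM in ESCs and 3.16 in NCs, a 1.49-fold higher value. *Fos* and *Fosl2* were level in ESCs, where *Fos* was 1.01 times *Fosl2*, and *Fos* was 0.626 times *Fosl2* in NCs.

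*Fosb* (chromosome 7, 19302696 to 19310051, minus strand), an inducible Fos gene best known from neurons, had 0.109 FPKM in ESCs and 0.161 in NCs. *Fosl1* (chromosome 19, 5447547 to 5455946, plus strand), which encodes Fra-1, had 0.179 FPKM in ESCs and 0.0227 in NCs. The size of 1 fragment was taken from low FPKM values (345 in ESCs and 439 in NCs) of genes annotated with 1 transcript, which gather at 0.0120 and 0.0138 FPKM in ESCs and at 0.00715 and 0.0136 FPKM in NCs for a transcript with 1 kb to align to. Which value of each pair is the size of 1 fragment was not settled, and the larger one in NCs may stand for more than 1. On these steps, *Fosb* stood for 28 to 33 fragments in ESCs and 43 to 81 in NCs, and *Fosl1* for 22 to 25 fragments in ESCs and at most 5 in NCs. The NC value of *Fosl1* lies under 3 fragments at the larger step (0.0245 FPKM), so no fold is given for it. In addition, 1163 of the 1864 bases of its transcript lie in exons of *Ccdc85b* on the opposite strand, a gene with 4.43 FPKM in ESCs and 3.67 in NCs. By comparison *Fos* stood for 296 to 341 fragments in ESCs and *Jun* for 1712 to 1976. These numbers cover counting only, over all 3 replicates of a condition.

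The 4 Fos genes summed to 4.55 FPKM in ESCs and 5.32 in NCs. The Jun sum was 13.0 times the Fos sum in ESCs and 16.5 times in NCs. Within the Fos sum, *Fos* made up 47.0% in ESCs and 37.2% in NCs, and *Fosl2* 46.7% and 59.4%.

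*Atf3* (chromosome 1, 191170296 to 191218039, minus strand), a stress-induced factor that pairs with Jun proteins and often represses its targets, was furthest up of the 10 genes. It had 1.73 FPKM in ESCs and 6.52 in NCs, a 3.77-fold higher value (1.91 on the log2 scale). Adding a pseudocount of 1 lowered this to 1.46, still past the limit. Its level stood for 224 to 258 fragments in ESCs and 856 to 1626 in NCs. It lay above 50.9% of all genes in ESCs and above 63.9% in NCs.

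*Egr1* (chromosome 18, 34859823 to 34864984, plus strand), which encodes the zinc finger factor also called Krox-24 or Zif268, had 6.57 FPKM in ESCs and 9.94 in NCs, a 1.51-fold higher value within the limit. *Ier2* (chromosome 8, 84661331 to 84662852, minus strand), a single-exon gene, had 50.4 FPKM in ESCs and 54.1 in NCs, a ratio of 1.07. It was the highest of the 10 genes in ESCs and lay above 91.6% of all genes there. Of the 50-base words in the longest coding transcript of each of the 10 genes, 0% occurred in a transcript of another gene.

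**Figure D3:**
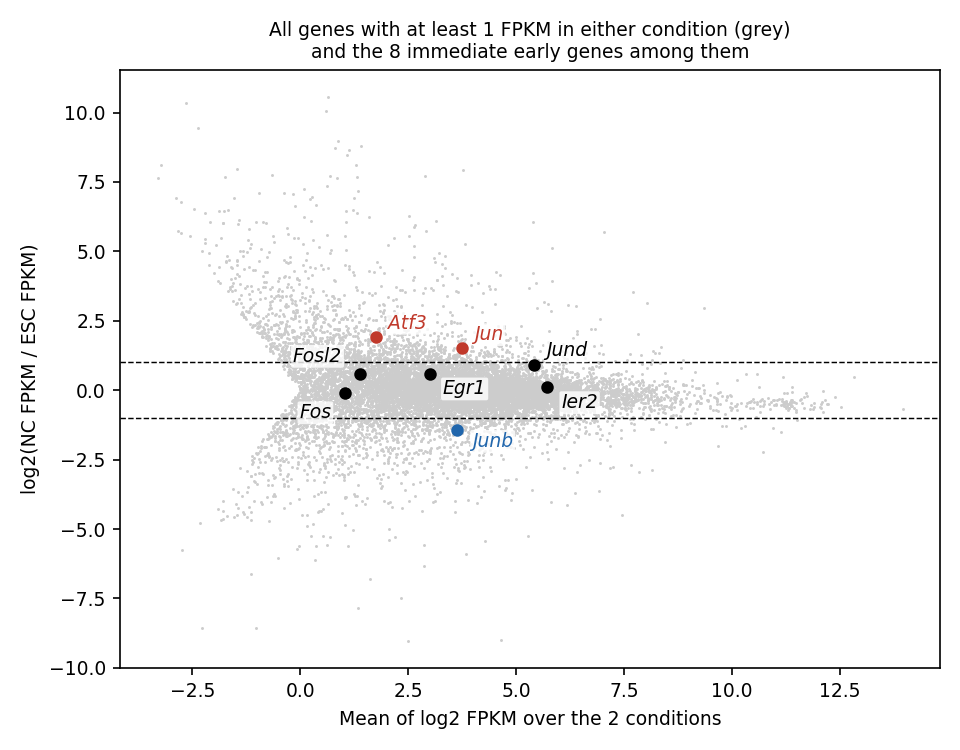
log2 ratio (NC over ESC FPKM) against the mean log2 FPKM for all genes with at least 1 FPKM in either condition (grey, genes listed at 0 in a condition left out) and for the 8 immediate early genes past that filter, with dashed lines at 2-fold. *Atf3* (1.91) and *Jun* (2.84-fold) lie above the upper line, *Junb* (-1.44) below the lower line, and *Jund* (0.92) just inside the upper line, all within the spread of the grey points.

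From high to low, the order in ESCs was *Ier2*, *Jund*, *Junb*, *Jun*, *Egr1*, *Fos*, *Fosl2*, *Atf3*, *Fosl1* and *Fosb*. In NCs it was *Jund*, *Ier2*, *Jun*, *Egr1*, *Junb*, *Atf3*, *Fosl2*, *Fos*, *Fosb* and *Fosl1*. No step of these orders has a replicate check, since the spread between replicates is unknown. *Ier2* and *Jund* in NCs, and *Fos* and *Fosl2* in ESCs, are examples of close neighbours whose order cannot be settled. Over the 2 conditions, the genes nearest to *Junb* on log2(FPKM + 1) were *Cdc42bpg* (20.7 FPKM in ESCs and 7.71 in NCs), *Oxct1* and *Sbno2*, at distances of 0.03 to 0.05. Those nearest to *Atf3* were *Peg12*, *Dsc2* and *Cxcr7*, the last with 1.84 FPKM in ESCs and 6.65 in NCs, at 0.06. With 2 values per gene this likeness says only that the levels are close.

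Other immediate early genes were mixed as well. Of the 45 listed genes, 37 passed the filter, of which 7 were at least 2-fold higher in NCs, 9 were at least 2-fold lower and 21 were within the limits, beside 12.5% and 10.6% of all genes. The median log2 ratio of the list was -0.51. *Phlda1*, a growth factor-induced gene, was highest among the rises with 4.90 FPKM in ESCs and 41.3 in NCs (8.43-fold). *Ier5l*, a relative of *Ier2*, had 13.4 FPKM in ESCs and 53.8 in NCs. *Zfp36l1* had 27.8 FPKM in ESCs and 86.1 in NCs, whereas its relative *Zfp36*, which also promotes the decay of AU-rich mRNAs, had 18.4 and 3.12. *Rhob* had 13.8 FPKM in ESCs and 32.7 in NCs.

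*Sgk1*, a kinase gene, was lowest among the falls, with 67.1 FPKM in ESCs and 5.37 in NCs (12.5-fold lower). *Socs3*, the feedback inhibitor of LIF signaling, had 82.1 FPKM in ESCs and 8.67 in NCs, 9.47-fold lower. *Arc*, a gene of the neuronal activity response, had 10.3 FPKM in ESCs and 1.23 in NCs. The other Egr genes, *Egr2*, *Egr3* and *Egr4*, were at most 0.211 FPKM in either condition. Scaled to the same sum, 9 of the 37 genes were higher and 8 lower, against 2350 higher and 980 lower of all genes.

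The listed bZIP partners, which can dimerize with Jun, Fos or each other, held 21 genes past the filter, 4 of them at least 2-fold higher and 2 lower, beside 12.5% and 10.6% of all genes. Among the higher ones, *Bach2* had 1.04 FPKM in ESCs and 3.71 in NCs, *Maf* had 0.303 and 1.93, and *Batf3* had 1.35 and 4.19. *Atf4*, the effector of the integrated stress response, had 123 FPKM in ESCs and 54.8 in NCs, and *Ddit3*, which encodes CHOP, had 40.8 and 15.4. With both conditions scaled to the same sum, 5 of the 21 partners were higher and 1 lower, beside 2350 and 980 of all 13293 genes. Of the 11 ATF4 stress response genes past the filter, 6 were at least 2-fold lower in NCs and 0 were higher, beside 10.6% and 12.5% of all genes, with a median log2 ratio of -1.19. *Ddit3*, which is among these 6, and *Atf5* are also in the list of bZIP partners, so the counts of the lists overlap. *Ddit4* had 244 FPKM in ESCs and 43.2 in NCs, *Trib3* had 12.4 and 2.52, and *Chac1* had 6.60 and 1.25. When both conditions were scaled to the same sum, 5 of the 11 were lower and 0 higher, beside 980 lower and 2350 higher of all 13293 genes.

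Upstream of these genes, MAP kinases phosphorylate the ternary complex factors that bind beside serum response factor (*Srf*), and JNK, itself a MAP kinase, phosphorylates c-Jun. None of the 6 genes of *Srf*, its ternary complex factors and its coactivators past the filter moved by 2-fold. Of all genes, 12.5% were at least 2-fold higher in NCs and 10.6% lower. *Srf* had 16.4 FPKM in ESCs and 21.7 in NCs. Of 21 MAP kinase pathway genes past the filter, 20 were within 2-fold and 1 was higher, beside the same 12.5% higher and 10.6% lower of all genes. *Mapk8* (JNK1) had 11.8 FPKM in ESCs and 13.4 in NCs, and *Rps6ka3*, which encodes a ribosomal S6 kinase, was the exception with 15.3 and 42.6. Scaled to the same sum, 1 gene of the *Srf* list and 3 of the kinase list were past the limit, all higher in NCs, as were 2350 of all 13293 genes under that scaling. Among the 8 listed corepressors and turnover factors of AP-1 and Egr1, 1 was past 2-fold, near the share of all genes. This was *Nab2*, a corepressor of Egr1 that Egr1 itself induces, with 4.42 FPKM in ESCs and 10.3 in NCs. *Fbxw7* and *Cops5*, which act on the turnover of Jun, had 8.19 and 75.4 FPKM in ESCs and 9.84 and 67.6 in NCs. These are mRNA levels, and phosphorylation was not measured.

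Of 20 genes often cited as AP-1 targets, 16 passed the filter, with 3 at least 2-fold higher in NCs, 5 lower and 8 within the limits, beside 12.5% higher and 10.6% lower of all genes. The higher ones were *Krt18* (45.7 FPKM in ESCs and 103 in NCs), *Krt8* (30.5 and 64.2) and *Plau* (0.789 and 2.21). The largest falls were those of *Fn1* (155 FPKM in ESCs and 42.5 in NCs), *Spp1* (152 and 48.7), *Plaur* (9.97 and 3.14) and *Hmox1* (48.1 and 20.5). *Ccnd1*, the cyclin gene that c-Jun is known to activate, had 15.2 FPKM in ESCs and 12.1 in NCs. With both conditions scaled to the same sum, 3 of the 16 genes were higher and 3 lower, beside 2350 and 980 of all 13293 genes. The median log2 ratio of this list was -0.19 as deposited, beside -0.03 for all genes past the filter. With both conditions scaled to the same sum it was 0.11, beside 0.26 for all genes. Whether the list differs from all genes was not tested.

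**Figure D4:**
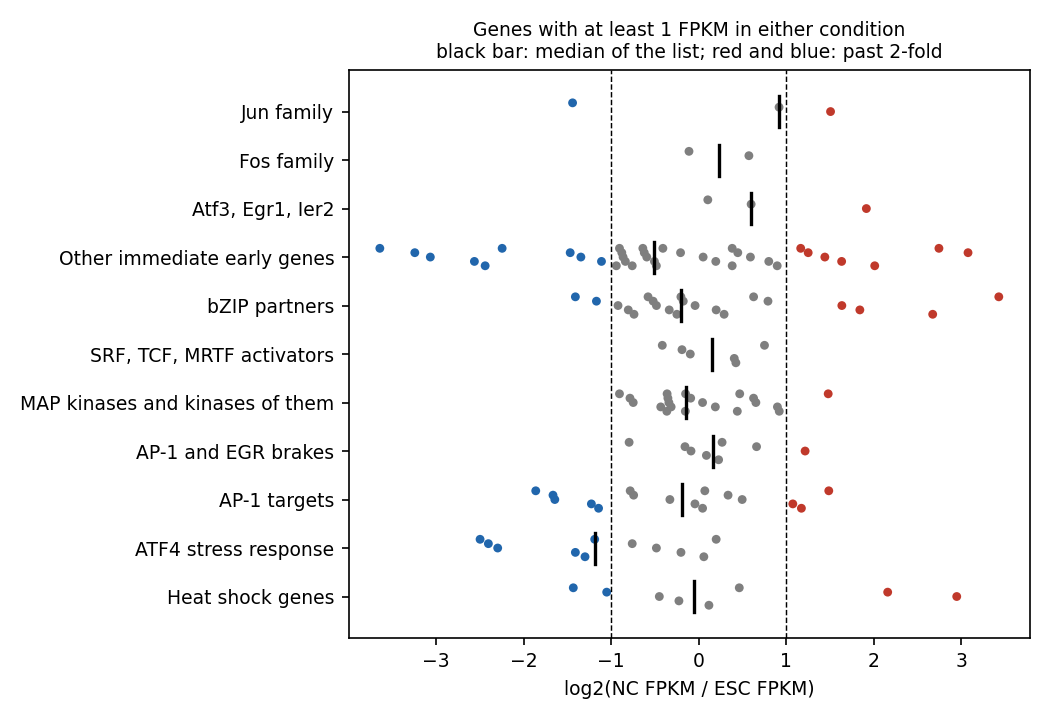
log2 ratio (NC over ESC FPKM) of each gene with at least 1 FPKM in either condition, 1 row per list, with the list's median as a black bar, dashed lines at 2-fold and genes past them in red (higher in NCs) or blue (lower). Points lie on both sides in most lists, the kinase row stays within 2-fold except for *Rps6ka3* (1.48), and the ATF4 row lies mostly to the left (median -1.19).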

How the data were processed

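Total RNA of 3 ESC and 3 NC samples was prepared with the Tru-Seq RNA kit and sequenced on an Illumina HiSeq. Per the submitters' processing notes and the study's methods, the tools were Bowtie2 (version 2.1.0) and TopHat2 (2.0.8) for alignment to mm10, Cufflinks (2.0.2) and Cuffmerge for assembly and Cuffdiff, whose version is not given in the sources used here. The authors deposited FPKM, with a single value for a gene in each condition, and the heading of the NC column reads FPK. The table also holds the authors' log2 fold changes, test statistics, p-values and q-values, which were not used. The design had named a test for replicate values, and none was run since each condition has 1 value.

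Ratios of NC to ESC FPKM were taken without a pseudocount among genes with at least 1 FPKM in either condition, and a gene was called at 2-fold. Alternatives were pseudocounts of 0.1 and 1, other filters, limits of 1.5-fold and 4-fold, equal sums and centring on the median ratio. The arithmetic of the ratios and calls was tested on simulated data with planted folds, which says nothing of replicate error. Genes named are the 10 members, up to 4 rises and 4 falls per list on log2(FPKM + 1), and the 3 genes nearest to the leading rise and fall, and others named were chosen after their values were seen. Some genes that the rule names are not reported here. The members and lists were chosen with earlier results of these data known. Positions and transcripts are from GENCODE M21 on GRCm38, the assembly that mm10 denotes, and promoters from RefSeq. Depth per sample is unknown. A fragment length of 200 bases was assumed for the size of 1 fragment. Python 3.11.15, numpy 2.4.6, pandas 2.3.3, scipy 1.17.1 and matplotlib 3.10.9 were used.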

Additional observations from a re-analysis of the deposited data

How the results depend on the processing

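Of 32 values of single genes recomputed under pseudocounts of 0.1 and 1, equal sums and centring, 30 kept their direction and their side of the 2-fold limit. With equal sums *Jund* passed the limit (log2 ratio 1.21) and *Fos* turned from lower to higher (0.18). The Jun and Fos sums kept their direction and stayed within 2-fold under all 4. With a limit of 1.5-fold, 4 of the 8 genes past the filter were higher in NCs and 1 was lower, and with 4-fold 0 were higher and 0 lower. With no filter, 2 of the 10 genes were lower, since *Fosl1* was added. The cause of these counts is the limit or filter itself. Over all genes, 1074 were higher in NCs and 974 lower with a pseudocount of 1. With at least 1 FPKM in both conditions 873 were higher and 924 lower, and with no filter 2947 and 2403. At 1.5-fold 2741 of the 13293 genes past the filter were higher and 2573 lower, and at 4-fold 679 and 488. Of the other immediate early genes, 10 were higher and 18 lower at 1.5-fold, and 3 were higher and 6 lower at 4-fold. No paired analysis was possible because the table holds 1 value per condition and no replicate columns, and leaving out a replicate was not possible for the same reason. Depth and the spread between replicates are unknown, so values near a limit, such as those of *Jund* and *Egr1*, cannot be placed with confidence on either side of it.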

Other observations

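The heat shock list, which marks another kind of stress response, held 8 genes past the filter, with 2 at least 2-fold higher in NCs, 2 lower and 4 within the limits, beside 12.5% higher and 10.6% lower of all genes (median log2 ratio -0.06 as deposited and 0.24 with both conditions scaled to the same sum). With both conditions scaled to the same sum, 2 of the 8 genes were higher and 1 lower, beside 2350 and 980 of all 13293 genes. *Hspb1* had 283 FPKM in ESCs and 105 in NCs, and *Hsp90aa1* had 1646 and 794. *Hspa1a* and *Hspa1b*, near-identical copies between which reads cannot be assigned with certainty, had 0.418 and 0.878 FPKM in ESCs and 3.22 and 3.92 in NCs. *Dnajb1* had 32.1 FPKM in ESCs and 34.8 in NCs.

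The orphan receptor gene *Nr4a1*, which encodes Nur77, had 14.5 FPKM in ESCs and 5.24 in NCs, and its relative *Nr4a2* had 0.154 and 1.03. As deposited, *Nr4a1* was at least 2-fold lower and *Nr4a2* at least 2-fold higher in NCs. *Nr4a2* passed the filter of 1 FPKM only through its NC value, which is close to that filter. With a pseudocount of 1 its log2 ratio was 0.82, within 2-fold, and that of *Nr4a1* was -1.31. The phosphatase gene *Dusp1* had 19.4 FPKM in ESCs and 8.96 in NCs, past the limit as deposited, and *Dusp2* had 1.00 and 1.36, within it. These pairs were chosen after their values were seen.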
